A study of Saccharomyces cerevisiae BY4741 with 8 samples.

Results

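The 9 genes described here encode the enzymes of glycogen metabolism and the subunits that bring a phosphatase to them in *Saccharomyces cerevisiae*. They were picked by locus tag as genes of this pathway, with no threshold on their values, though earlier results of these data were known. All 9 were found among the 5782 genes of the files and among the 5506 genes tested. They are the glycogenins *GLG1* (YKR058W) and *GLG2* (YJL137C), the glycogen synthases *GSY1* (YFR015C) and *GSY2* (YLR258W), the branching enzyme *GLC3* (YEL011W), glycogen phosphorylase *GPH1* (YPR160W), the debranching enzyme *GDB1* (YPR184W), and the regulatory subunits *GAC1* (YOR178C) and *PIG2* (YIL045W). The study compared 4 groups of cells, each with 2 biological replicates: BY4741(*yrr1*Δ) with vanillin, BY4741 with vanillin, BY4741(*yrr1*Δ) in SD and BY4741 in SD. BY4741 is a haploid laboratory strain that the study's methods describe as *MATa his3*Δ1 with deletions of *LEU2*, *MET5* and *URA3*. BY4741(*yrr1*Δ) also lacks *YRR1*, the gene of a zinc-finger activator of multidrug resistance genes, which was replaced with a *KanMX* cassette. The number of deletion clones is not given in the sources used here. All cultures grew at 30 °C in SD, a synthetic medium with 20 g/L glucose, and those with vanillin had 5 mM of this phenolic aldehyde, an inhibitor from lignocellulose. Growth began at an OD600 of 0.2, and cells were taken in log phase at 1.6 to 2.0.

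Glycogen is a branched glucose polymer that yeast lays down as a reserve of carbon and energy, mostly as growth slows or nutrients run short. Glycogenin builds a primer on itself, glycogen synthase lengthens it with glucose from UDP-glucose, and the branching enzyme adds branch points, while phosphorylase releases glucose 1-phosphate and the debranching enzyme clears the branches. Synthase is active when dephosphorylated, by the Glc7p phosphatase with a subunit such as Gac1p that binds glycogen, and many of these genes are known to be induced through the stress response element, the site of Msn2p and Msn4p.

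Library totals ran from 2195326 to 2453838 rounded expected counts, the estimated number of reads of each gene. *YRR1* had 0 to 2 counts in the deletion libraries, against 73 to 100 in BY4741. Over all libraries *LEU2* and *URA3* had 0 to 2 counts and *HIS3* had 51 to 181. *MET5* had 300 to 585 counts, while *MET17*, another gene of methionine synthesis, had 0 to 9, so the counts of *MET5* go against the stated deletion. The α-pheromone gene *MF(ALPHA)2* had 2 to 6 counts and *MF(ALPHA)1* had 0 to 26, the highest of them in BY4741 with vanillin. The a-pheromone genes were not analysed here.

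The SD replicates stood apart for glycogen genes, and every result against SD rests on them. In BY4741(*yrr1*Δ) in SD all 9 genes were higher in replicate 2 than in replicate 1, with a median difference (replicate 1 minus 2) of -0.60 in log2 CPM (counts scaled to library size), against 0.0092 over all genes tested. In BY4741 in SD all 9 were higher in replicate 1, with a median of 1.17, against 0.0012 over all genes. The order seen in the 9 genes, with both of these signs, was found in 33.1% of the genes tested. *GSY1* differed most between replicates, by 2.06 on this scale in BY4741 in SD. General stress marker genes moved the same way: 8 of 9 tested were higher in replicate 2 of BY4741(*yrr1*Δ) (median -0.67) and 8 of 9 in replicate 1 of BY4741 (median 0.81). All 6 genes of trehalose, the other storage carbohydrate, did so as well, with medians of -0.50 in BY4741(*yrr1*Δ) and 0.68 in BY4741. Whatever set the replicates apart was not tested. With vanillin the replicates were closer, with medians of 0.30 in BY4741(*yrr1*Δ) and -0.24 in BY4741. Replicate 1 of BY4741(*yrr1*Δ) with vanillin was the higher for all 9, and for 3035 of the 5506 genes.

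**Figure D1:**
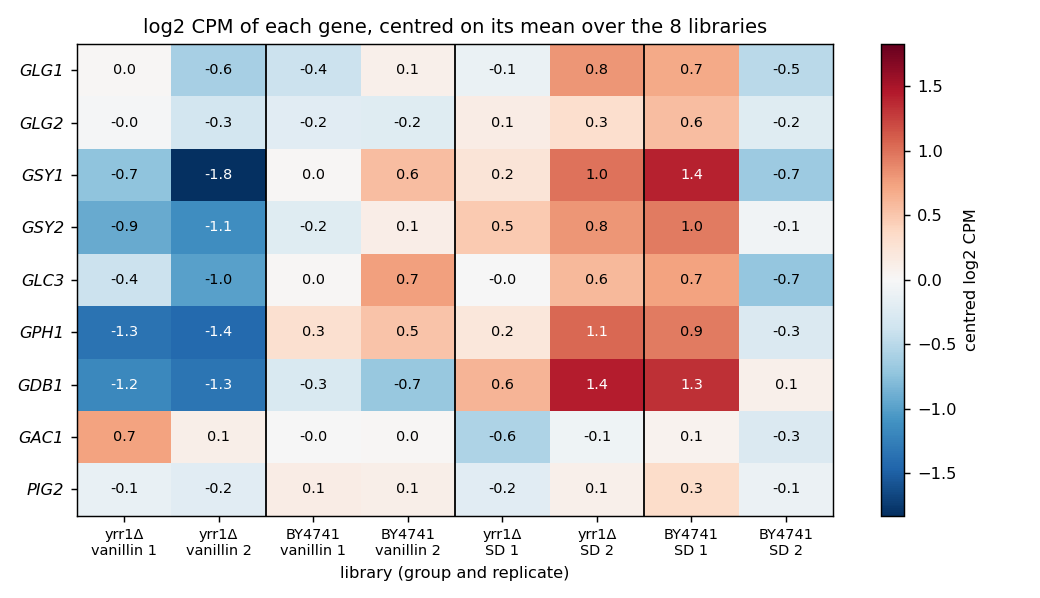
Level of each glycogen gene in each library as log2 CPM, centred on the mean of the gene over the 8 libraries; red is above that mean and blue below it. The SD columns of 1 strain differ from each other, BY4741(*yrr1*Δ) with vanillin is the bluest pair of columns, and *GAC1* runs against the other rows there.

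The 9 genes lie on 8 chromosomes of the R64 genome, none of them overlapped by another annotated gene. *GLG1* is at chrXI:552770-554620 (+), *GLG2* at chrX:154985-156127 (-), *GSY1* at chrVI:174265-176391 (-), *GSY2* at chrXII:660716-662833 (+) and *GLC3* at chrV:133120-135234 (+). *GPH1* (chrXVI:861306-864014, +) and *GDB1* (chrXVI:902044-906654, +) share a chromosome. *GAC1* is at chrXV:667860-670241 (-) and *PIG2* at chrIX:271161-272777 (+), and each interval is the coding sequence. The paralogs can be told apart by their reads: *GSY1* and *GSY2* had 73.2% of aligned coding bases in common, with a longest shared run of 20 bases. *GLG1* and *GLG2* had 68.3% in common with a longest run of 14 bases.

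Because most of these genes moved together between libraries, the sequence before their start codons was searched for the stress response element, AGGGG, on both strands (where it reads CCCCT); no other motif was searched. In the 600 bases before the start, 7 of 9 members had a match (77.8%), against 39.8% of 5724 protein-coding genes. At least 2 matches were found in 6 of 9 (66.7%), against 10.8% of all genes. In the nearest 300 bases the counts were 4 of 9 (44.4%), against 22.1%. Within the 600 bases *GLC3* and *GPH1* held 3 matches, *GSY1*, *GSY2*, *GLG2* and *PIG2* held 2, *GDB1* held 1, and *GLG1* and *GAC1* held none. A match is a run of letters and does not show binding. With vanillin in BY4741(*yrr1*Δ) the log2 fold change of *GLG1*, with no match, was -0.68, and that of *GAC1* was 0.75. Neither was called. Whether the element bears on the direction of a change was not tested. The windows below are those of the 3 genes that passed the test, followed by that of *GAC1*, whose values ran the other way. Those of the 3 hold all matches of each gene within the 600 bases, so they lie at different distances from the start. All the windows are from the RefSeq R64 sequence, on the strand of the gene, with matches in capitals. They span chrXII:660316-660615 for *GSY2*, 400 to 101 bases before the start, chrXVI:860706-861005 for *GPH1*, 600 to 301 bases before it, chrXVI:901744-902043 for *GDB1* and chrXV:670242-670541 for *GAC1*, both 300 to 1 bases before it.
GSY2: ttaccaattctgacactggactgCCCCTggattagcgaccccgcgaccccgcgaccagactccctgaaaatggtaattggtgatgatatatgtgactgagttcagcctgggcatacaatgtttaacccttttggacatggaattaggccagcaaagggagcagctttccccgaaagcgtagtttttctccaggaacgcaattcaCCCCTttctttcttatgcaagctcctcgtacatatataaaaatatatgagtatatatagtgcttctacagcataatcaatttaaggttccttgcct
GPH1: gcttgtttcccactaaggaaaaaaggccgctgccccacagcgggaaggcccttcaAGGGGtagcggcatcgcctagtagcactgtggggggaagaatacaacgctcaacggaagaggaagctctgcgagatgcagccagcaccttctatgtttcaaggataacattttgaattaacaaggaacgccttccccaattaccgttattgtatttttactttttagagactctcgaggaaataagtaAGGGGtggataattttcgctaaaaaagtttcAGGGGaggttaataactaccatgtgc
GDB1: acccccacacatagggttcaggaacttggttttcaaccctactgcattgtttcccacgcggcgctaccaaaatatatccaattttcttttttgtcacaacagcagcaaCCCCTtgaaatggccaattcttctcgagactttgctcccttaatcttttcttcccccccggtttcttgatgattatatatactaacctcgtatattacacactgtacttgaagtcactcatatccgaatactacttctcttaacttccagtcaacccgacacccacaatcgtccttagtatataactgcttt
GAC1: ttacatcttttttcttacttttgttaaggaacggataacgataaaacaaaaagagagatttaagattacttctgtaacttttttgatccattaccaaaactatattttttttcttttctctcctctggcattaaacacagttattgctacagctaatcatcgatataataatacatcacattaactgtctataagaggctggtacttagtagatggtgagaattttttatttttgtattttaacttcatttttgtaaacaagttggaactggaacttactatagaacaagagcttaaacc

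In BY4741(*yrr1*Δ), transcripts of the major glycogen synthase and of both enzymes of glycogen breakdown were lower with vanillin. *GDB1* fell 5.09-fold, *GPH1* 4.21-fold and *GSY2* 3.19-fold, and 0 of the 9 genes rose past the threshold. That threshold was an adjusted p, or false discovery rate (FDR), no higher than 0.05 in edgeR over all genes tested. In RNA from whole cultures, fewer expressing cells and less RNA per cell cannot be told apart. In this comparison 6.63% of all genes tested were called lower and 4.58% higher, 11.2% in all. The other 6 members did not pass. Their log2 fold changes ran down to -1.85 for *GSY1*, and *GAC1* stood at the other end with 0.75. An unadjusted p under 0.05 was reached by 5 of the 9, and by 29.0% of all genes. The median over the 9 genes was -0.99, against 0.015 over all genes. Both vanillin libraries lay below both SD libraries in TMM-scaled CPM for 6 members (*GSY1*, *GSY2*, *GLC3*, *GPH1*, *GDB1* and *GLG2*), an order that 26.7% of all genes had, and above them for *GAC1*, as for 28.4% of all genes. The calls needed both vanillin libraries: with replicate 1 or replicate 2 of the BY4741(*yrr1*Δ) vanillin group left out, 0 of the 9 genes were called, while the log2 fold changes of the 3 stayed between -2.43 and -1.57.

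In BY4741, vanillin changed none of the 9 genes past the threshold (3.14% of all genes tested were called), and 1 of the 9 had an unadjusted p under 0.05, as did 18.3% of all genes. DESeq2 called that gene, *GDB1*, and 4.94% of all genes. The median log2 fold change of the 9 was -0.34, against -0.024 over all genes. *GDB1* was also the only member whose vanillin libraries both lay below the SD libraries, an order that 26.6% of all genes had. The SD replicates decided several of these values. The log2 fold change of *GSY1* was -0.40, and it was 0.95 without replicate 1 of BY4741 in SD and -1.09 without replicate 2. That of *GPH1* was -0.050, and it was 0.65 without replicate 1 and -0.53 without replicate 2.

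**Figure D2:**
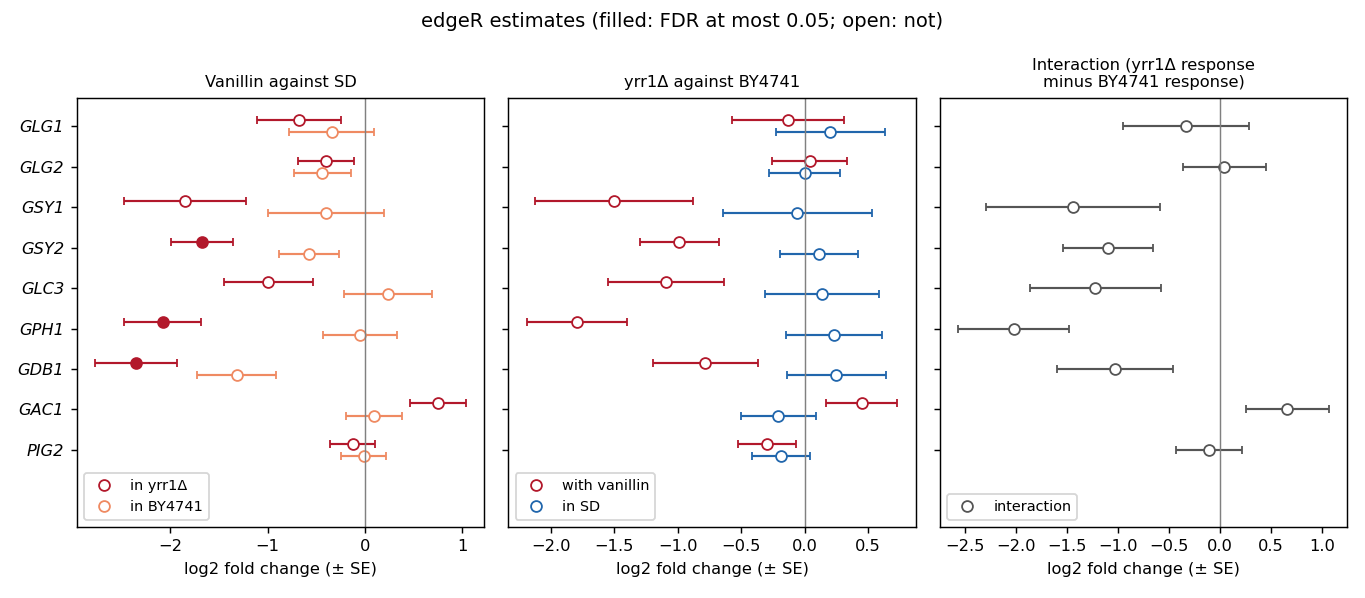
Fold change (log2) of each glycogen gene with a standard error derived from edgeR's test. It is shown for vanillin against SD in each strain, for BY4741(*yrr1*Δ) against BY4741 in each medium, and for the interaction. Filled points have an FDR of at most 0.05 and are *GSY2*, *GPH1* and *GDB1* with vanillin in BY4741(*yrr1*Δ); the strains in SD lie between -0.21 and 0.25.

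Glycogenin starts each glycogen molecule, and neither of its genes was called in any comparison. Levels are given from here as FPKM, in which reads are scaled to coding length and library size, so that genes can be compared. *GLG1* had 34.5 and 23.8 FPKM in BY4741(*yrr1*Δ) with vanillin and 24.4 and 32.9 in BY4741 with vanillin, against 27.6 and 60.0 in BY4741(*yrr1*Δ) in SD and 55.4 and 23.6 in BY4741 in SD. *GLG2* had 27.1 and 23.6 FPKM in BY4741(*yrr1*Δ) with vanillin and 22.5 and 21.6 in BY4741 with vanillin, against 26.8 and 34.6 in BY4741(*yrr1*Δ) in SD and 41.4 and 23.4 in BY4741 in SD. For *GLG1* the groups overlapped in every comparison, and the 2 highest libraries were 1 SD replicate of each strain. The log2 fold changes with vanillin were -0.68 ± 0.43 (SE) for *GLG1* and -0.40 ± 0.29 for *GLG2* in BY4741(*yrr1*Δ), with FDRs of 0.333 and 0.388 from edgeR's test. In BY4741 they were -0.34 ± 0.44 and -0.44 ± 0.29. The mean ratio of *GLG1* to *GLG2* lay between 1.14 and 1.38 in the 4 groups.

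Glycogen synthase is made from 2 genes, of which *GSY2* is known to encode the major form. *GSY2* had 96.6 and 89.7 FPKM in BY4741(*yrr1*Δ) with vanillin and 148 and 183 in BY4741 with vanillin, against 228 and 324 in BY4741(*yrr1*Δ) in SD and 362 and 173 in BY4741 in SD. The BY4741(*yrr1*Δ) libraries with vanillin were the lowest of all 8 and close to each other. The share of all genes with a single group as the lowest or highest 2 libraries was not counted, for this gene or those below. *GSY2* fell by 1.67 on the log2 scale (SE 0.32, FDR = 0.013 from edgeR's test) with vanillin in this strain. In BY4741 its log2 fold change was -0.57 ± 0.31 (FDR = 0.354), and the groups overlapped. *GSY1* had 29.5 and 14.9 FPKM in BY4741(*yrr1*Δ) with vanillin and 47.2 and 66.3 in BY4741 with vanillin, against 51.6 and 99.2 in BY4741(*yrr1*Δ) in SD and 133 and 30.7 in BY4741 in SD. Its lowest 2 libraries were again those of BY4741(*yrr1*Δ) with vanillin, but the replicates differed by up to 4.34-fold, in BY4741 in SD. The log2 fold change in BY4741(*yrr1*Δ) was -1.85 ± 0.62 and did not pass (FDR = 0.090 from edgeR's test). It was called when edgeR was fitted to the 4 libraries compared (FDR = 0.046, with 5.21% of all genes called), and without replicate 1 or replicate 2 of BY4741 in SD (FDR = 0.026 and 0.027). *GSY2* carried 81.2% ± 6.46 of the synthase FPKM in BY4741(*yrr1*Δ) with vanillin and 74.6% ± 1.74 in BY4741 with vanillin, against 79.1% ± 3.48 in BY4741(*yrr1*Δ) in SD and 79.0% ± 8.37 in BY4741 in SD (SD, n = 2 each).

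**Figure D3:**
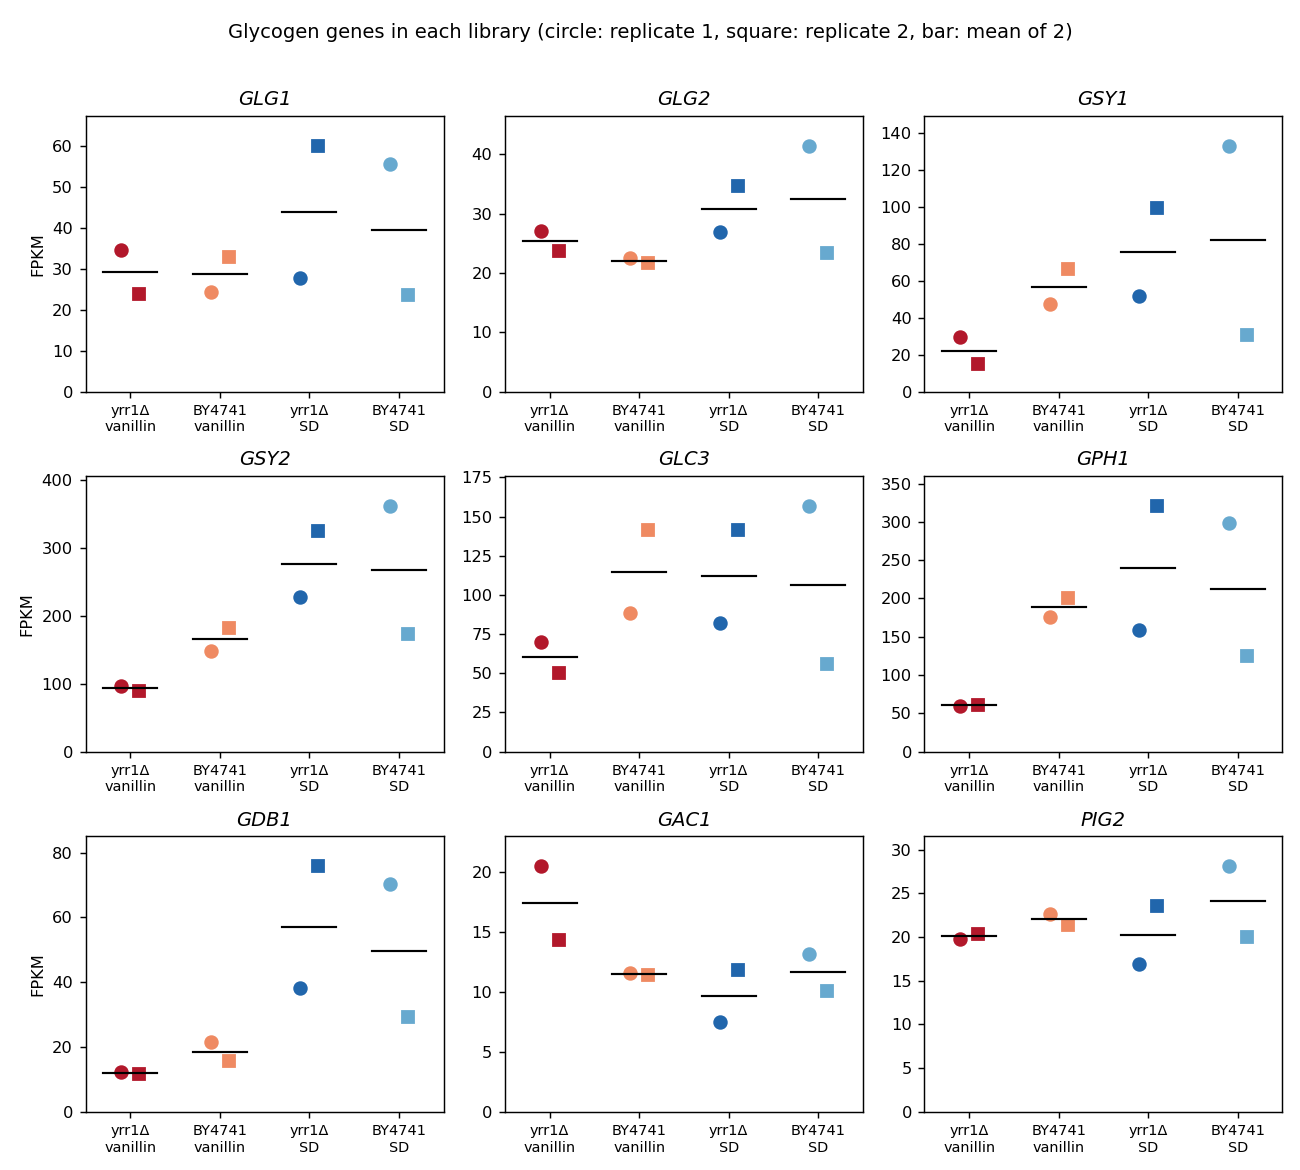
FPKM of each of the 9 glycogen genes in each library (circle, replicate 1; square, replicate 2; bar, mean of the 2), by group. For *GSY2*, *GPH1* and *GDB1* the BY4741(*yrr1*Δ) libraries with vanillin lie together at the bottom, while the SD replicates of each strain lie far apart.

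The branching enzyme gene was not called in either strain. *GLC3* had 70.2 and 49.9 FPKM in BY4741(*yrr1*Δ) with vanillin and 88.2 and 142 in BY4741 with vanillin, against 82.4 and 142 in BY4741(*yrr1*Δ) in SD and 157 and 56.0 in BY4741 in SD. Its log2 fold change with vanillin was -0.99 ± 0.46 in BY4741(*yrr1*Δ) and 0.24 ± 0.45 in BY4741, with FDRs of 0.190 and 0.812 from edgeR's test. The BY4741 value was 1.10 without replicate 1 of BY4741 in SD and -0.31 without replicate 2. Within a library, the ratio of *GLC3* to the sum of both synthase genes spread less between SD replicates than the levels did. It was 0.557 and 0.477 in BY4741(*yrr1*Δ) with vanillin and 0.451 and 0.569 in BY4741 with vanillin, against 0.295 and 0.334 in BY4741(*yrr1*Δ) in SD and 0.317 and 0.275 in BY4741 in SD. All 4 vanillin libraries lay above all 4 SD libraries in this ratio, which was not tested.

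Both genes of glycogen breakdown fell with vanillin in BY4741(*yrr1*Δ). *GPH1* had 60.0 and 61.4 FPKM in BY4741(*yrr1*Δ) with vanillin and 176 and 200 in BY4741 with vanillin, against 158 and 321 in BY4741(*yrr1*Δ) in SD and 299 and 125 in BY4741 in SD. The BY4741(*yrr1*Δ) libraries with vanillin were the lowest, and the BY4741 libraries with vanillin lay inside the range of their SD replicates. *GPH1* fell by 2.08 on the log2 scale (SE 0.40, FDR = 0.013 from edgeR's test) with vanillin in BY4741(*yrr1*Δ), and its log2 fold change in BY4741 was -0.050 ± 0.38 (FDR = 0.954). *GDB1* had 12.2 and 11.7 FPKM in BY4741(*yrr1*Δ) with vanillin and 21.5 and 15.5 in BY4741 with vanillin, against 38.3 and 75.9 in BY4741(*yrr1*Δ) in SD and 70.3 and 29.2 in BY4741 in SD. All 4 vanillin libraries were below all 4 SD libraries. The share of all genes with this order was not counted; within 1 strain it was 26.7% in BY4741(*yrr1*Δ) and 26.6% in BY4741. *GDB1* fell by 2.35 on the log2 scale (SE 0.42, FDR = 0.010 from edgeR's test) in BY4741(*yrr1*Δ). In BY4741 its log2 fold change was -1.31 ± 0.41 and did not pass edgeR's test (FDR = 0.130), and DESeq2 gave an FDR of 0.014.

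The ratio of *GPH1* to *GDB1* set BY4741 with vanillin apart from the other groups. It was 4.92 and 5.26 in BY4741(*yrr1*Δ) with vanillin and 8.21 and 12.9 in BY4741 with vanillin, against 4.14 and 4.23 in BY4741(*yrr1*Δ) in SD and 4.25 and 4.29 in BY4741 in SD. In SD the 4 libraries thus lay within a narrow range, although the level of each gene differed by 1.98- to 2.41-fold between replicates. The ratio of the summed FPKM of both breakdown genes to that of *GSY1*, *GSY2* and *GLC3* was 0.420 ± 0.074 in BY4741(*yrr1*Δ) with vanillin and 0.625 ± 0.10 in BY4741 with vanillin, against 0.623 ± 0.11 in BY4741(*yrr1*Δ) in SD and 0.580 ± 0.019 in BY4741 in SD (SD, n = 2 each). The ratios are descriptions and were not tested.

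**Figure D4:**
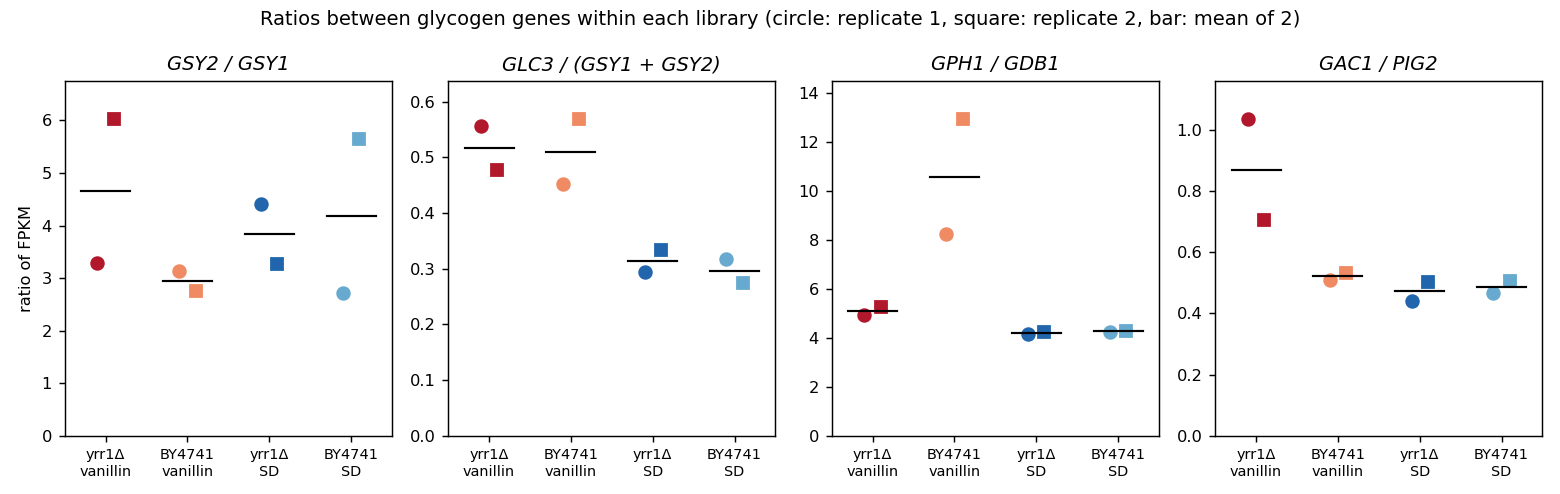
Ratios of FPKM between glycogen genes within each library (circle, replicate 1; square, replicate 2; bar, mean of the 2), by group, each axis starting at 0. The ratio of *GLC3* to the synthases is higher in all 4 vanillin libraries than in all 4 SD libraries, and that of *GPH1* to *GDB1* is 8.21 and 12.9 in BY4741 with vanillin and 5.26 or less elsewhere.

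The phosphatase subunit genes, whose products bring Glc7p to glycogen, were not called in any comparison. *GAC1* had 20.5 and 14.3 FPKM in BY4741(*yrr1*Δ) with vanillin and 11.5 and 11.4 in BY4741 with vanillin, against 7.44 and 11.8 in BY4741(*yrr1*Δ) in SD and 13.2 and 10.1 in BY4741 in SD. The BY4741(*yrr1*Δ) libraries with vanillin were the 2 highest of the 8. Its log2 fold change with vanillin in this strain was 0.75 ± 0.29 (FDR = 0.123 from edgeR's test), and that in BY4741 was 0.092 ± 0.29 (FDR = 0.892). *PIG2* had 19.8 and 20.4 FPKM in BY4741(*yrr1*Δ) with vanillin and 22.7 and 21.4 in BY4741 with vanillin, against 16.9 and 23.6 in BY4741(*yrr1*Δ) in SD and 28.2 and 20.0 in BY4741 in SD. It varied least of the 9 genes, with log2 fold changes with vanillin of -0.13 ± 0.23 in BY4741(*yrr1*Δ) and -0.014 ± 0.23 in BY4741. The ratio of *GAC1* to *PIG2* was 1.04 and 0.705 in BY4741(*yrr1*Δ) with vanillin and 0.508 and 0.533 in BY4741 with vanillin, against 0.441 and 0.503 in BY4741(*yrr1*Δ) in SD and 0.468 and 0.505 in BY4741 in SD.

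With vanillin, no glycogen gene was called between BY4741(*yrr1*Δ) and BY4741 by edgeR, which called 0.618% of all genes in this comparison. An unadjusted p under 0.05 was reached by 4 of the 9, all lower in BY4741(*yrr1*Δ) (*GPH1*, *GSY2*, *GSY1* and *GLC3*), and by 22.9% of all genes tested. Both BY4741(*yrr1*Δ) libraries were below both BY4741 libraries for 6 members (30.1% of all genes) and above them for *GAC1* (27.5% of all genes). The median log2 fold change was -0.78, against -0.014 over all genes. *GPH1* had the largest difference, with a log2 fold change of -1.79 ± 0.39 (FDR = 0.079 from edgeR's test), and *GSY2* had -0.99 ± 0.31 (FDR = 0.131). The outcome changed with the test: DESeq2, which called 5.49% of all genes here, called *GPH1* and *GSY2*. edgeR on the 4 libraries compared, which called 5.8%, called *GPH1*, *GSY2* and *GSY1* (FDR = 0.0099, 0.034 and 0.049). *GPH1* was also called without replicate 2 of BY4741 in SD (FDR = 0.0497).

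In SD the strains were not told apart by these genes. None of the 9 was called (0.0182% of all genes were), 0 had an unadjusted p under 0.05 (1.78% of all genes), DESeq2 called 0, and the libraries overlapped for all 9, where 25.7% of all genes did not overlap. The log2 fold changes ran from -0.21 for *GAC1* to 0.25 for *GDB1*, with standard errors of 0.23 to 0.59. With 1 SD library left out the value of *GSY1* was -0.75 when BY4741 replicate 2 was the one omitted and 1.31 when it was replicate 1. Differences within the standard errors were not detectable with 2 replicates, and larger ones could also go uncalled. With vanillin, for example, *GPH1* had -1.79 ± 0.39 between the strains and was not called (FDR = 0.079 from edgeR's test).

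The interaction asks whether the response to vanillin differed between the strains. None of the 9 genes passed (0.0908% of all genes did), and 2 had an unadjusted p under 0.05, *GPH1* and *GSY2*, against 20.5% of all genes. The value of *GPH1* was -2.03 ± 0.54 (FDR = 0.123 from edgeR's test), and DESeq2, which called 5.09% of all genes in the interaction, called it with an FDR of 0.0049. Those of *GSY1*, *GLC3*, *GSY2* and *GDB1* ran from -1.45 to -1.03, and *GAC1* had 0.66. The median over the 9 was -1.03, against 0.0047 over all genes. The comparisons share libraries, so that the values of a gene in them are not independent.

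Of 18 further genes of glycogen metabolism and its control, 5 were called with vanillin in BY4741(*yrr1*Δ), where 11.2% of all genes were. Of these, 3 fell. *PGM2*, the major phosphoglucomutase, had 89.3 and 85.3 FPKM in BY4741(*yrr1*Δ) with vanillin, against 413 and 811 in SD (log2 fold change -2.91 ± 0.49, FDR = 0.0085 from edgeR's test). *UGP1*, which makes UDP-glucose, had 422 and 426 FPKM, against 875 and 1437 in SD (-1.56 ± 0.30, FDR = 0.013). *SGA1*, a glucoamylase known for its role in sporulation, had 11.8 and 11.4 FPKM, against 25.8 and 21.3 in SD (-1.15 ± 0.29, FDR = 0.035). The other two rose. *PGM1*, the minor phosphoglucomutase, had 179 and 172 FPKM with vanillin, against 96.2 and 91.8 in SD (0.78 ± 0.17, FDR = 0.025), and *PSK2*, a PAS kinase that acts on Ugp1p and glycogen synthase, had 29.6 and 28.0, against 13.8 and 16.6 (0.81 ± 0.19, FDR = 0.029). None of the 5 stayed called once either vanillin replicate of BY4741(*yrr1*Δ) was left out, and 2 did without either vanillin replicate of BY4741. With a replicate block, with edgeR on the 4 libraries compared, or without either SD replicate of BY4741(*yrr1*Δ), 3 of the 18 were called. *PGM1* and *SGA1* were not called on those 4 libraries alone (FDR = 0.0995 and 0.067), and *PSK2* was called neither there (FDR = 0.089) nor by DESeq2 (FDR = 0.056).

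The 13 others did not pass in BY4741(*yrr1*Δ), among them the phosphatase *GLC7* (-0.46 ± 0.22) and its subunit genes *GIP2* (-1.78 ± 0.51, FDR = 0.055 from edgeR's test) and *PIG1* (-0.42, in a gene with 27 to 60 counts per library). The median over the 18 was -0.28. In BY4741 0 of the 18 were called with vanillin in the model of all 4 groups, and 3 had an unadjusted p under 0.05, where 18.3% of all genes did. DESeq2 and edgeR on the 4 libraries compared each called 1, and of all genes they called 4.94% and 4.91%. *PGM1* had 0.73 ± 0.17 (FDR = 0.061), *PGM2* -1.10 ± 0.46 (FDR = 0.246) and *UGP1* -0.78 ± 0.29 (FDR = 0.194). In that model none of the 18 was called between the strains in either medium or in the interaction. At an unadjusted p under 0.05 there were 3 between the strains with vanillin (22.9% of all genes), 0 in SD (1.78%) and 4 in the interaction (20.5%). DESeq2 called 1, 0 and 1, and edgeR on the libraries compared called 2 between the strains with vanillin.

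Over the 8 libraries, 8 of the 9 genes followed the mean of the set (log2 CPM, each gene centred), with Pearson correlations of 0.98 for *GSY1*, 0.95 for *GSY2*, 0.93 for *GPH1*, 0.91 for *GLC3*, 0.88 for both *GDB1* and *GLG1*, 0.84 for *GLG2* and 0.77 for *PIG2*. *GAC1* had -0.27. Each gene is part of that mean, and the points share libraries and the spread of the SD replicates. The mean itself was -0.44 and -0.85 in BY4741(*yrr1*Δ) with vanillin and -0.071 and 0.14 in BY4741 with vanillin, against 0.086 and 0.66 in BY4741(*yrr1*Δ) in SD and 0.78 and -0.30 in BY4741 in SD. The 5 genes outside the set with the most similar pattern were *CAP1*, of the actin capping protein (0.982), the hexokinase gene *HXK1*, also a stress marker here (0.977), *YET3*, of an endoplasmic reticulum protein (0.975), the vacuolar cargo receptor gene *ATG19* (0.970) and *SDH2*, of succinate dehydrogenase (0.968).

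All 9 stress marker genes tested and all 6 trehalose genes also had negative log2 fold changes with vanillin in BY4741(*yrr1*Δ), though not all were called. Over all genes, 2681 of 5506 were negative there. Of 10 stress markers, 9 were tested, and 7 of these were called lower with vanillin in BY4741(*yrr1*Δ), where 6.63% of all genes were, and 3 in BY4741 (*HSP12*, *CTT1* and *ALD3*), where 0.817% of all genes were called lower. Their median log2 fold changes were -1.95 in BY4741(*yrr1*Δ) and -1.01 in BY4741. The 3 in BY4741 became 1 when either of its vanillin replicates or replicate 1 in SD was left out, and 5 when either SD replicate of BY4741(*yrr1*Δ) was. Their summed FPKM was 3153 and 3216 in BY4741(*yrr1*Δ) with vanillin and 5645 and 4630 in BY4741 with vanillin, against 23949 and 22707 in BY4741(*yrr1*Δ) in SD and 18204 and 17126 in BY4741 in SD. *HSP104* and *HSP26* were not called in either strain, and *HSP26* had a log2 fold change of -0.48 in BY4741(*yrr1*Δ) and 0.70 in BY4741, with a correlation of 0.39 with the mean of the glycogen genes. *HSP12*, a membrane heat shock protein gene, made up most of the SD sums, and *DDR2* was listed at 0 in 1 library of each strain with vanillin. This sum did not overlap between vanillin and SD in BY4741, where that of the 9 glycogen genes did. *HSP12* alone had 789 and 579 FPKM in BY4741 with vanillin, against 11245 and 13004 in SD. The contrast between the sums thus rests largely on that gene, and *HSP104* and *HXK1* overlapped between vanillin and SD in BY4741. Of the 6 trehalose genes 3 were called lower with vanillin in BY4741(*yrr1*Δ) (*TPS1*, *TSL1* and *NTH2*), while *TPS2*, *TPS3* and *NTH1* had -0.91, -0.15 and -0.71 and did not pass, and 0 were called in BY4741, where 0 had an unadjusted p under 0.05. The 3 became 1 or 0 when a vanillin replicate of BY4741(*yrr1*Δ) was left out. Between the strains with vanillin, edgeR's model of all 4 groups called 0 of the 9 stress markers, and DESeq2 called 3 (5.49% of all genes). All 9 had negative log2 fold changes (median -0.60), as had 2814 of 5506 genes. Of the 9, 5 had an unadjusted p under 0.05 in edgeR's test (22.9% of all genes). In the interaction 0 were called and all 9 were negative (median -0.88), as were 2735 of 5506 genes. Of the 9, 6 had an unadjusted p under 0.05 (20.5% of all genes). Of the 6 trehalose genes 1 had such a p in each, with medians of -0.40 and -0.53. The part of a general stress response in the values of the glycogen genes was not tested.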

How the data were processed

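Poly(A) RNA of 8 libraries, 2 in each of 4 groups, was sequenced on an Illumina instrument. For each library the authors deposited an expected count per gene, an estimate of its reads without normalization, and its FPKM, scaled to gene length and library size. The labels name the R64 build, and the aligner and counting tool are not given in the sources used here. The deposited comparison tables, which hold group means, log2 ratios and a probability score, were not used, and their headers name 6 mM vanillin where the labels name 5 mM.

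Expected counts, of which 3.77% of those above 0 were fractional, were rounded and fitted in 1 model of the 4 groups with edgeR 4.0.16 (R 4.3.3), with filterByExpr (5506 of 5782 genes), TMM and the quasi-likelihood test. Adjusted p-values are Benjamini-Hochberg FDRs over the 5506 genes, and a gene was called at 0.05. Standard errors were derived from the log2 fold change and the statistic of edgeR's test, which does not report them. The procedure was tested on simulated data. Alternatives were DESeq2 1.42.0, limma 3.58.1 on log2 of FPKM plus 1 or 0.1, other scalings and filters, the libraries compared alone, a replicate block, the limits of 2-fold and 0.001, and each library left out. Promoters were read from the RefSeq R64 sequence, and all 5782 gene IDs matched it. The members, the gene lists and the rule for named genes (all members, the called or central genes of the pathway and the 5 most similar genes) were chosen with earlier results of these data known.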

Additional observations from a re-analysis of the deposited data

How the results depend on the processing

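The 3 calls with vanillin in BY4741(*yrr1*Δ) (*GSY2*, *GPH1* and *GDB1*) were made under every other scaling, filter and tool. With either vanillin replicate left out, their log2 fold changes ran from -2.43 to -1.57. The limits of 2-fold and 0.001 were applied to the edgeR model of all 4 groups, where 0 remained. Among the other settings the lowest FDRs of the 3 were 3.53e-06, 2.97e-07 and 5.05e-08. Their log2 fold changes there were -1.535 or lower, so each also met those limits in another setting. With 1 library left out, the members called were 0 to 4 with vanillin in BY4741(*yrr1*Δ), 0 in BY4741, 0 to 1 between the strains with vanillin, and 0 in SD and in the interaction; a lone library was assumed to vary like the others. DESeq2 called 1 member in BY4741, 2 between the strains with vanillin and 1 in the interaction. With only the libraries compared, 3 members were called between the strains with vanillin. The cause of these changes was not tested.

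Over all genes, the edgeR model of all 4 groups gave 617, 173, 34, 1 and 5 calls. These are for vanillin in BY4741(*yrr1*Δ), vanillin in BY4741, the strains with vanillin, the strains in SD and the interaction. In the same model they were 15, 10, 0, 0 and 0 at the limits of 2-fold and 0.001. DESeq2 gave 635, 280, 256, 1 and 220, and the libraries compared alone gave 284, 268, 317 and 0 for the first 4. limma on log2 of FPKM plus 1 gave 2 between the strains in SD. Leaving out 1 library gave 194 to 595, 32 to 214, 1 to 54, 0 to 1 and 0 to 93.

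Replicate numbers did not pair the samples: correlations of replicate differences ran from -0.584, between the SD groups, to 0.18. A replicate block gave 400, 99, 12, 1 and 0 genes, and 3, 0, 0, 0 and 0 members. A crossed pairing of the SD libraries, chosen after seeing that correlation, gave a block with 75 genes and 0 members.

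Signs turned only for values that were not called. Vanillin in BY4741(*yrr1*Δ) gave *PIG2* 0.0095 and 0.011 in limma (pseudocounts of 1 and 0.1), and vanillin in BY4741 gave *GAC1* -0.018 with library size alone and -0.0083 and -0.0080 in limma. Between the strains with vanillin *GLG1* was 0.020 with library size alone and 0.016 and 0.016 in limma. Between the strains in SD *GSY1* was 0.16 and 0.16 in limma, 0.12 with the block and 0.16 with the crossed block, and *GLG2* was -0.062 with library size alone and -0.030 and -0.029 in limma. In the interaction *PIG2* was 0.10 with library size alone and 0.11 and 0.12 in limma. With vanillin in BY4741(*yrr1*Δ) the values that turned with 1 library left out ran from -0.28 to 0.033 for *PIG2*. With vanillin in BY4741 they ran from -1.09 to 0.95 for *GSY1*, -0.31 to 1.10 for *GLC3*, -0.53 to 0.65 for *GPH1*, -0.82 to 0.34 for *GLG1*, -0.069 to 0.24 for *GAC1* and -0.22 to 0.20 for *PIG2*. Between the strains with vanillin they ran from -0.48 to 0.15 for *GLG1* and -0.12 to 0.19 for *GLG2*. Between the strains in SD they ran from -0.75 to 1.31 for *GSY1*, -0.31 to 0.70 for *GSY2*, -0.41 to 1.02 for *GLC3*, -0.25 to 0.95 for *GPH1*, -0.24 to 0.98 for *GDB1*, -0.34 to 0.90 for *GLG1*, -0.34 to 0.43 for *GLG2*, -0.48 to 0.0063 for *GAC1* and -0.39 to 0.041 for *PIG2*. In the interaction they ran from -1.02 to 0.21 for *GLG1*, -0.38 to 0.38 for *GLG2* and -0.33 to 0.095 for *PIG2*.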
